A study of Saccharomyces cerevisiae with 29 samples.

Results

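The transcripts described here are XUTs, Xrn1-sensitive unstable transcripts of budding yeast, that no single listed coding row on the other strand covers over 50% or more of their length. They were chosen from the table's 1798 XUT rows by position. A row was kept where no single coding row on the other strand covered 50% or more of it, which held for 872 rows, and where its mean over the 17 RNA libraries was at least 10 normalized counts, which left 698. The other 174 stayed below that mean. Of the 698 members, 43 reached it only through the xrn1Δ or rrp6Δ libraries, their mean over the libraries outside both mutants being lower, so their rise in those mutants was partly fixed by the choice. XUT0887 lay just inside the limit on the mean (10.0048) and XUT1777 just outside it (9.93), and XUT0261 (49.9% covered) and XUT1036 (50.3%) lay either side of the limit on overlap.

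Total RNA had been sequenced from the W303 background, in which every strain was MATa, RAD5 and GAL and carried alleles of ade2, trp1, can1, leu2, his3 and ura3. All cells were grown in YEP with 2% glucose and arrested in G1 with α-factor (5 µg/ml, 170 min, 25 °C), and strand-specific libraries were made after rRNA depletion. From the arrest there were 2 libraries of rad50Δ (rad50::KAN with URA3::GPD-TK7), 2 of mre11Δ (mre11::HIS), 2 of mre11-H125N, 2 of rrp6Δ (rrp6::TRP with URA3::GPD-TK7), 2 of xrn1Δ (xrn1::ADE2), 1 of ku70Δ (ku70::HIS) and 4 of wild type. Another 2 wild-type libraries came from cells released from the arrest into S phase for 60 min with 0.033% methyl methanesulfonate (MMS), a DNA-alkylating agent, so treatment and cell-cycle phase cannot be told apart there. The labels do not say whether replicates were separate cultures, and p-values therefore measure only the spread between these libraries. Fewer cells making a transcript and less of it per cell cannot be told apart in such bulk RNA.

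Noncoding transcription in yeast starts largely at the nucleosome-free regions of gene promoters and ends, and most of its products are destroyed soon after they are made. Transcripts that terminate early through Nrd1, Nab3 and Sen1 are handed to the nuclear exosome, whose nuclease Rrp6 trims and degrades them, and are known as cryptic unstable transcripts or CUTs. Longer ones reach the cytoplasm, are decapped, and are eaten from the 5′ end by the exonuclease Xrn1. XUTs were named in earlier work for rising when Xrn1 is lost, so a rise in xrn1Δ belongs to the definition of the class, and SUTs are the stable unannotated transcripts with which they partly overlap. Mre11 and Rad50, with Xrs2, form the MRX complex of DNA-end processing, H125N is a change in the nuclease site of Mre11, and Yku70 belongs to Ku, the end-binding complex of nonhomologous end joining.

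The 698 members were mostly short and scarce. Their lengths ran from 139 to 5923 bp, with a median of 614 bp, and the median of their mean levels was 72.0 normalized counts per kb, against 740.0 for coding rows. No coding row covered any base of 523 members from the other strand, and 175 had some such bases. Coding rows on the other strand together covered 50% or more of 29 members. An mRNA row, which can reach beyond the coding row, did so for 107, and a RefSeq protein-coding locus that the table does not list for 9. An annotated SUT covered 50% or more of 235 members on the same strand, a CUT 59. A start within 500 bp of the start of a coding gene on the other strand, the layout of a divergent promoter, was found for 300, and 69 lay within 20 kb of a chromosome end. The annotation's own note did not list W303 for 77 members. A further feature split the class. In 46 members, with a median length of 5251.5 bp, RefSeq protein-coding loci that the table does not list covered 50% or more of the transcript on the same strand, mostly as nested pairs, a layout known of Ty retrotransposons in this species. The note did not list W303 for 39 of these 46. Such repeats share sequence among copies, and how reads with several alignments were counted is not stated, so values of single loci among the 46 are uncertain.

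The 5 highest levels per length were those of XUT0483, XUT0109, XUT0074, XUT0206 and XUT0763, of which XUT0483, XUT0206 and XUT0763 lie in unlisted RefSeq loci. XUT0483 (chromosome 9, 209007 to 209244, plus strand) averaged 21318 normalized counts per kb and lies in YIL082W-A, and XUT0206, in YDR261W-B, and XUT0763, in YNL054W-B and YNL054W-A, averaged 4283 and 3329 per kb. XUT0109 (chromosome 3, 169019 to 169394) averaged 6941 per kb, with 2636 to 3173 normalized counts in wild type. XUT0074 (chromosome 2, 680756 to 681160) lies opposite LSR1, the U2 spliceosomal RNA, and averaged 5414 per kb. XUT1151 (chromosome 5, 442006 to 442471), which averaged less, lies opposite SCR1, the RNA of the signal recognition particle.

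Those opposite-strand members separated the libraries in a way that the groups do not explain. XUT1151 amounted to 0.00449% to 0.0231% of SCR1 in 8 libraries, namely rad50Δ, mre11Δ, MMS and wild type 1 and 2. It amounted to 0.169% to 0.534% in the other 9, which were mre11-H125N, rrp6Δ, xrn1Δ, ku70Δ and wild type 3 and 4. XUT0074 split the same libraries, at 0.0542% to 0.244% of LSR1 in the first set and 0.597% to 1.51% in the other, and so did 84 dubious ORFs that sit within a coding gene on the opposite strand, with library medians of 0 to 0.145% and 0.303% to 1.15% of the gene's level per base. SCR1 itself stood at 12760 to 776500 normalized counts in mre11-H125N, rrp6Δ, xrn1Δ and ku70Δ, and at 902500 to 1728000 in the remaining libraries. Relative to the abundant RNA, reads on the strand opposite it therefore differ between the 2 sets. The counts themselves overlap, since XUT1151 had 77.3 and 21.6 in xrn1Δ and 46.8 to 344 in the first set. Comparisons with wild type are given below also within a set, as an alternative chosen after the data were seen. Depth over coding rows ran from 7419447 to 15493490 reads in the first set and from 18765423 to 32613640 in the other. Depth and library set therefore cannot be told apart, and a library median of 0 for the dubious ORFs depends on depth. Member reads equalled 0.498% to 0.777% of the coding reads in wild-type G1. The transcript of each deleted gene stood at 0 to 15.8 normalized counts in its mutant. Arrest also varied: the mean log2 difference of 30 G1/S genes to wild type was 2.49 and 0.45 in the mre11Δ libraries, 1.2 and 0.16 in rad50Δ, and 1.87 and 2.03 in MMS, against 1.54 in wild type 1 and -0.61 to -0.46 in the other wild-type libraries.

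In the text that follows, a member "rose" or "fell" where its adjusted p was under 0.05 in limma on log2(value + 1) with Benjamini-Hochberg adjustment over all 16559 rows tested, fold changes are ratios of group means of normalized counts, and a log2 change given for a single member in the main fit carries its standard error. The share of all tested rows called in the same direction is given as background beside each first count. Every library of the groups compared lay beyond all libraries of the other group for each member whose change is described.

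In xrn1Δ 332 of the 698 members rose and 76 fell (47.6% and 10.9%, against 35.1% and 28.9% of all rows). Their median log2 change was 0.72, against 0.06 for coding rows and 0.84 for the 726 XUTs that run antisense to coding rows. In rrp6Δ 390 rose and 15 fell (55.9% and 2.15%, against 21.3% and 6.95% of all rows), with a median of 1.01, against 0.00 for coding rows and 1.37 for the antisense XUTs. Within the library set that holds these mutants, with wild type 3 and 4 only, the counts were 293 higher and 77 lower in xrn1Δ and 335 higher and 16 lower in rrp6Δ. With no filter on low values, 362 of the 872 rose in xrn1Δ and 420 in rrp6Δ.

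**Figure D1:**
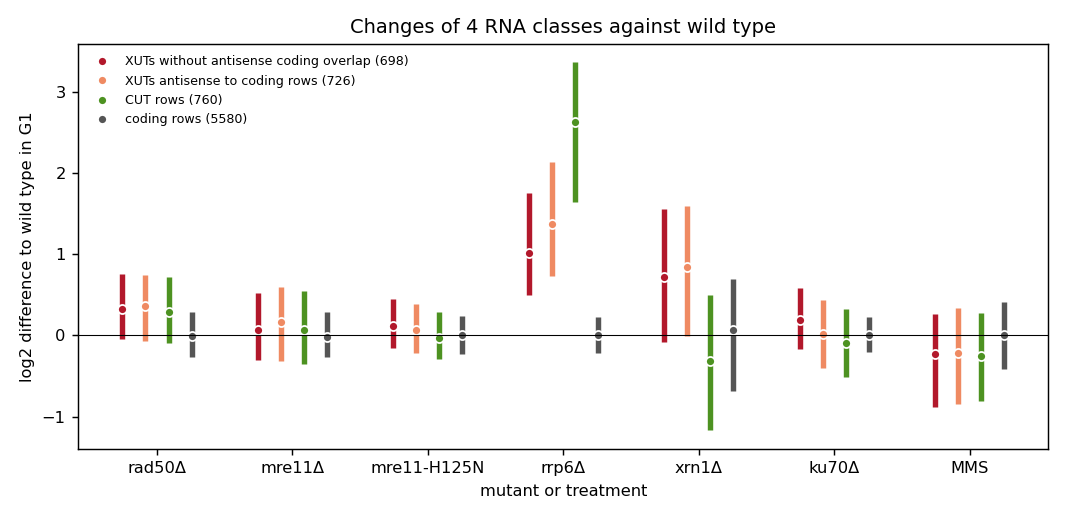
Log2 differences to wild type in G1 (y axis) for 4 RNA classes in each mutant and in MMS (x axis); points are medians and bars run between the lower and upper quartiles over the rows of a class. The 698 members have their largest medians in rrp6Δ (1.01) and xrn1Δ (0.72), while CUT rows lie at 2.63 in rrp6Δ and -0.32 in xrn1Δ.

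The member with the largest rise in xrn1Δ, XUT0988, had 180 and 193 normalized counts there, against 5.57, 3.41, 4.88 and 0.914 in wild type (50.5-fold, log2 5.46 ± 0.51, adjusted p = 9.73e-07 in limma). It lies on chromosome 2, 643563 to 645008, minus strand, 1353 bp before DUR1,2 on the same strand, the gene for the urea-degrading enzyme. XUT1396 (chromosome 10, 605994 to 607434, minus strand) ends 343 bp before IME1, the master regulator of meiosis, in the promoter region where the noncoding RNA IRT1 is known to repress that gene, and overlaps SUT643. It had 1277 and 1218 counts in xrn1Δ, against 29.3, 29.0, 115 and 57.6 in wild type, so that the groups lay far apart (21.6-fold, log2 4.65 ± 0.44, adjusted p = 1.41e-06 in limma). The IME1 row itself had 20.4 and 20.2 counts in xrn1Δ, against 13.9, 3.41, 5.69 and 4.57 in wild type. XUT1396 also stood at 166 and 183 counts in rad50Δ and 136 and 202 in mre11Δ (log2 1.81 ± 0.44, adjusted p = 0.0131, and log2 1.74 ± 0.44, adjusted p = 0.0159, in limma). IME1 had 31.3 and 25.8 counts in rad50Δ and 46.2 and 30.6 in mre11Δ. In MMS, where XUT1396 was lower than in wild type, IME1 had 23.9 and 22.7.

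XUT1030 (chromosome 4, 48247 to 48984, minus strand) ends 216 bp before HO, the mating-type switching endonuclease. It had 1436 and 1500 counts in xrn1Δ and 499.5 and 459 in rrp6Δ, against 34.8, 111, 128 and 204 in wild type, the order being xrn1Δ, rrp6Δ, wild type with no overlap (xrn1Δ log2 3.86 ± 0.64, adjusted p = 2.39e-04, rrp6Δ log2 2.24 ± 0.64, adjusted p = 0.0211, both in limma). HO had 2495 and 2410 counts in xrn1Δ and 825 and 827 in rrp6Δ, against 106, 234, 235 and 395 in wild type, so the gene and the transcript before it were high in the same libraries. XUT1132 (chromosome 5, 176085 to 177114), XUT0803 (chromosome 15, 227657 to 228051, before PSH1, a ubiquitin ligase for the centromeric histone), XUT0952, XUT0884 and XUT0262, which ends 32 bp before the seripauperin gene PAU2, were the other members named for the size of their rise. Their log2 changes in xrn1Δ ran from 3.79 to 4.02. XUT0884 and XUT0262 had means of 6.96 and 5.56 outside xrn1Δ, and so entered the test only through the xrn1Δ libraries.

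Calls in xrn1Δ varied with length. Of the 211 under 400 bp, 43 rose and 43 fell, with a median log2 change of 0.00. Of the 283 from 400 to 1000 bp, 150 rose and 18 fell, with a median of 0.93, and of the 204 longer ones 139 rose and 15 fell, with a median of 1.31. In rrp6Δ the same length classes had 116 of 211, 158 of 283 and 116 of 204 rising, with medians of 1.27, 1.03 and 0.76. The wild-type level per kb had medians of 64.9, 42.0 and 59.8 in these classes, so a longer member also gave more reads to test. These counts are descriptions of the members, and the dependence on length was not tested.

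**Figure D2:**
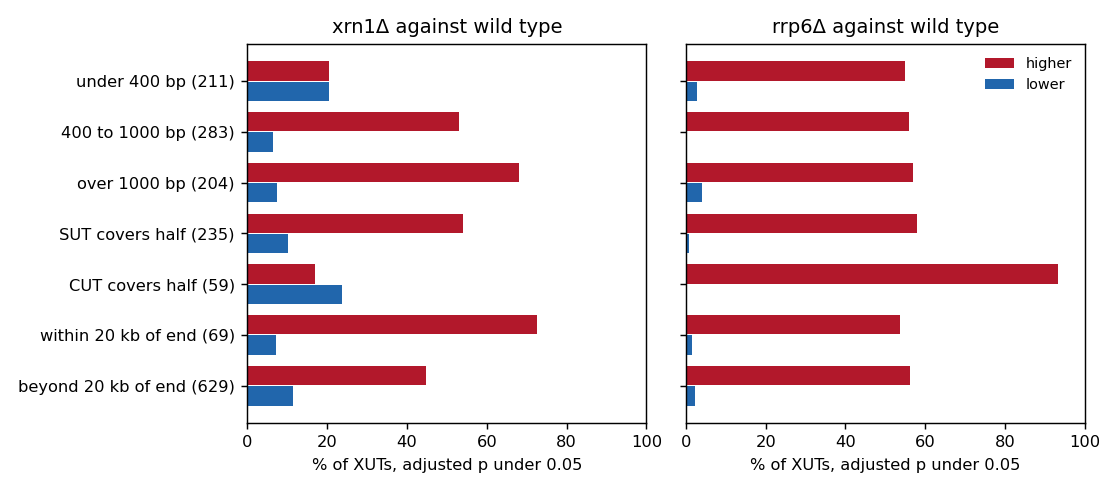
Share of members (x axis, percent) with an adjusted p under 0.05, higher (red) and lower (blue), in xrn1Δ (left) and rrp6Δ (right), by length, overlap with SUTs or CUTs and distance to a chromosome end (y axis, number of members in brackets). In xrn1Δ the share rising grows from 20.4% under 400 bp to 68.1% over 1000 bp, while in rrp6Δ it lies between 55.0% and 56.9% in the 3 length classes and at 93.2% for members covered by a CUT.

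Members that coincide with a CUT rose in rrp6Δ far more often than they fell, which belongs to the CUT class and is no separate trait of these members. In that mutant 55 of the 59 rose and 0 fell, with a median log2 change of 2.74 (of all 760 CUT rows, 650 rose there and 4 fell), whereas in xrn1Δ 10 rose and 14 fell, with a median of -0.02. Of the 235 that coincide with a SUT, 136 rose in rrp6Δ and 127 in xrn1Δ, with medians of 0.97 and 0.89. Of the 69 members within 20 kb of a chromosome end, 50 rose in xrn1Δ and 37 in rrp6Δ, with medians of 1.39 and 0.80. The 38 members whose note does not list W303, apart from the 46 over unlisted RefSeq loci, went apart in the 2 mutants: 25 rose and 1 fell in rrp6Δ (median 1.73), and 3 rose and 17 fell in xrn1Δ (median -0.93).

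Tested directly, xrn1Δ against rrp6Δ, 147 members were higher in xrn1Δ and 229 lower (21.1% and 32.8%, against 23.5% and 32.5% of all rows), shares near the background. The 2 mutants belong to the same library set. Of the 59 CUT-covered members, 0 were higher in xrn1Δ and 47 lower, and of all 760 CUT rows 10 were higher and 617 lower. Of the members under 400 bp, 15 were higher and 103 lower, and of those over 1000 bp 84 were higher and 40 lower, so the direction of the difference turned with length. Divergent members had 44 higher and 114 lower of 300, the remaining 398 had 103 and 115, and those within 20 kb of an end had 28 and 11 of 69.

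**Figure D3:**
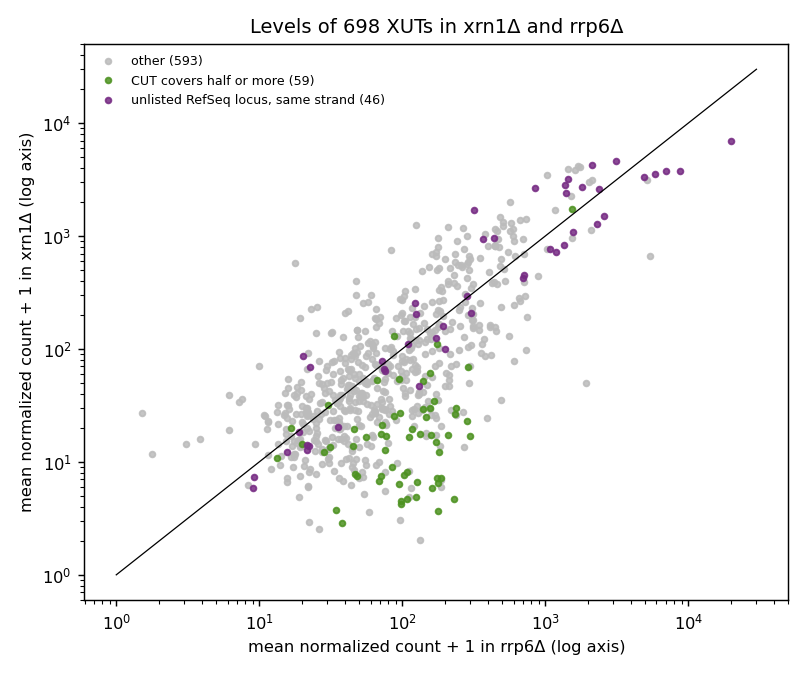
Mean normalized count + 1 of each of the 698 members in xrn1Δ (y axis) and rrp6Δ (x axis), both on log axes and both means of 2 libraries; the line marks equal levels. CUT-covered members (green, 59) lie mostly below the line, and members over unlisted RefSeq coding loci (purple, 46) reach the highest levels on both axes.

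Some members stood far apart in the nuclease mutants. XUT0631 (chromosome 12, 231389 to 231608, plus strand, 220 bp, over SUT251) had 1.09 and 1.01 counts in xrn1Δ, or 3 reads in each library, and 150 and 113 in rrp6Δ, against 5.57, 6.82, 19.5 and 10.1 in wild type. The rrp6Δ libraries stood above and the xrn1Δ libraries below every wild-type library (rrp6Δ log2 3.66 ± 0.47, adjusted p = 6.46e-05, xrn1Δ log2 -2.34 ± 0.47, adjusted p = 6.53e-04, both in limma). XUT0600 (chromosome 11, 489887 to 490161, plus strand) is divergent from GCN3, a subunit of the translation initiation factor eIF2B, starts 232 bp from it and overlaps CUT241. It had the largest rise of any member in rrp6Δ, with 149 and 205 counts, against 8.36, 13.6, 5.69 and 9.14 in wild type (19.2-fold, log2 4.16 ± 0.69, adjusted p = 5.39e-04 in limma), and 4.01 and 1.35 in xrn1Δ. XUT0631, XUT0600 and XUT1174 had means of 8.93, 7.90 and 7.58 outside the rrp6Δ libraries, so they entered the test only through the mutant in which they are high.

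XUT0883 had 1.82 and 2.36 counts in xrn1Δ and 86.4 and 103 in rrp6Δ, against 12.5 to 18.8 in wild type, the same order of groups. Other members fell in xrn1Δ. XUT1547 had 20.4 and 12.5 counts there, against 101 to 127 in wild type (log2 -2.68 ± 0.48, adjusted p = 2.93e-04 in limma), and XUT1593, divergent from RSN1, had 8.02 and 4.38, against 21.0 to 30.9 (log2 -2.02 ± 0.30, adjusted p = 6.06e-05 in limma).

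Of the 8 members with the largest rises in rrp6Δ, 5 are divergent, against 43% of all members, a description of a list chosen by size. Beside XUT0600, XUT1174 is divergent from SMC1, a cohesin subunit, XUT0984 from CNS1, a co-chaperone of Hsp90, XUT0360 from LST7, a gene of amino acid signalling, and XUT0457 from PPX1, the cytosolic exopolyphosphatase. Each overlaps an annotated CUT and starts 235 to 334 bp from the gene. Their log2 changes in rrp6Δ ran from 3.56 to 3.82, and in all 4 the rrp6Δ libraries had at least 118 counts, against at most 33.4 in any wild-type library. The other 3 are XUT0631, XUT0648 and XUT1198, each over a SUT and not divergent. XUT1198 (chromosome 7, 94455 to 94679, minus strand, over SUT535) had 234 and 305 counts in rrp6Δ, against 36.2, 29.0, 10.6 and 11.9 in wild type (log2 3.73 ± 0.41, adjusted p = 2.20e-05 in limma). XUT0648 (chromosome 12, 449738 to 450714, over SUT264) had 521 and 780 counts in rrp6Δ and 277 and 288.2 in xrn1Δ, against 36.2, 25.6, 49.6 and 57.6 in wild type (rrp6Δ log2 3.95 ± 0.32, adjusted p = 2.10e-06 in limma).

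A few members fell in rrp6Δ, and 3 of them lie at flocculin promoters. XUT1324 starts 97 bp from FLO5 on the other strand, XUT0945 321 bp from FLO1, and XUT0946 overlaps the start of FLO1 by 20.9% of its length. FLO1 and FLO5 encode cell-wall adhesins that make cells flocculate, and their sequences are alike, so counts at these loci may be split between copies. XUT1324 was listed at 0 and 1.05 counts in rrp6Δ, that is 0 and 2 reads, against 6.97, 23.9, 13.0 and 16.4 in wild type (log2 -3.37 ± 0.50, adjusted p = 2.02e-04 in limma), and had 31.0 and 20.9 in xrn1Δ. XUT0946 had 2.59 and 3.14 in rrp6Δ, against 5.57, 23.9, 21.1 and 20.1 in wild type (log2 -2.11 ± 0.47, adjusted p = 0.00461 in limma). In rrp6Δ the genes stood the other way round, FLO1 at 553 and 496 counts, against 157 to 193 in wild type, and FLO5 at 543 and 428, against 217 to 240. This order was not general. FLO1 had 868 and 700 counts in mre11Δ, where XUT0945 had 9 and 20 reads and XUT0946 20 and 28. The deeper wild-type libraries had 2, 4, 13 and 14 reads of XUT0945 and 4, 14, 26 and 22 of XUT0946. FLO5 had 1151 and 1240 counts in xrn1Δ, where XUT1324 overlapped wild type. The call of XUT0945 ended when the first rrp6Δ library was left out.

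A locus near the right end of chromosome 9 holds a pair of members that overlap on opposite strands. XUT1353 (427395 to 429451, minus strand, over SUT616) had 11.2 and 22.5 counts in rrp6Δ and 596 and 556 in xrn1Δ, against 37.6, 71.6, 89.5 and 60.3 in wild type, below every wild-type library in rrp6Δ and above every one in xrn1Δ. Between the nuclease mutants it differed by the largest amount of any member higher in xrn1Δ (34.1-fold, log2 5.09 ± 0.43, adjusted p = 7.43e-07 in limma). Its partner XUT0505 (427792 to 430095, plus strand) had 124 and 98.5 in rrp6Δ and 121 and 127 in xrn1Δ, against 5.57, 11.9, 9.76 and 14.6 in wild type, so the strand that fell in rrp6Δ lay opposite a strand with higher counts there.

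**Figure D4:**
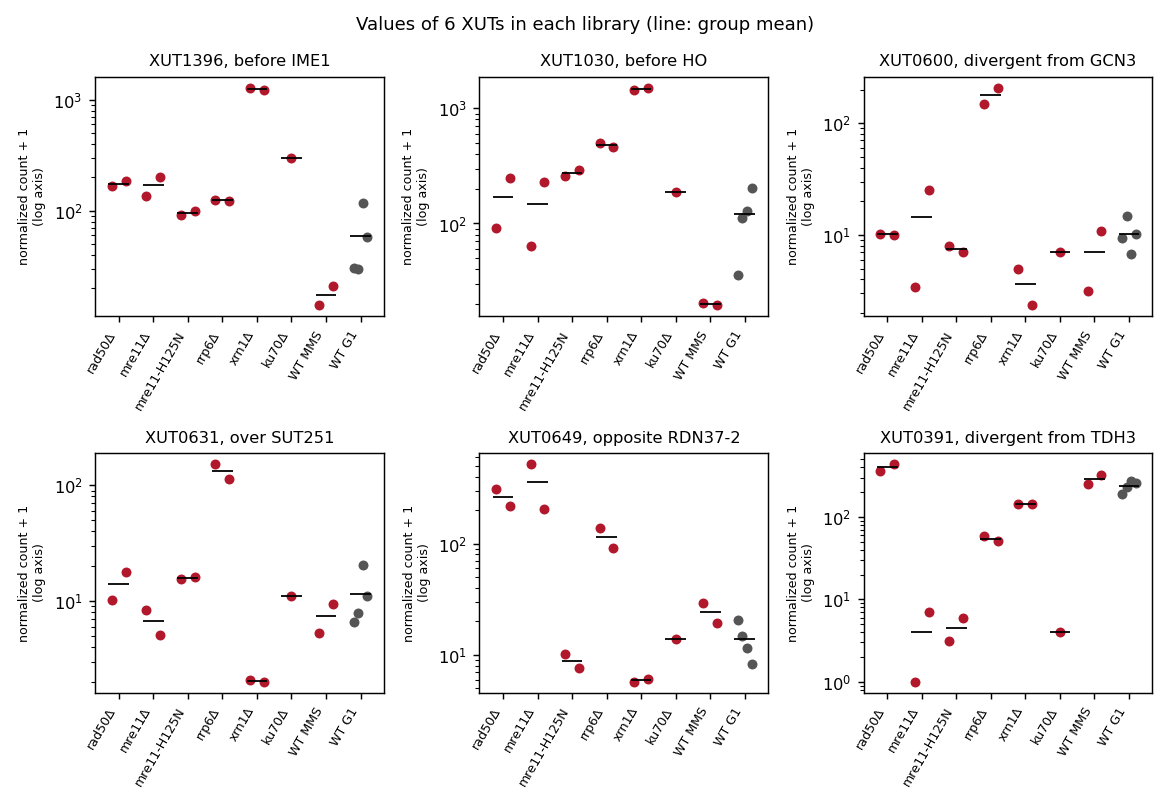
Normalized count + 1 (y axes, log scale) of 6 members in every library of each group (x axes; red points, mutants and MMS, grey points, wild type in G1; lines, group means). XUT1396 and XUT1030 are highest in xrn1Δ, XUT0600 and XUT0631 in rrp6Δ, XUT0649 is high in rad50Δ, mre11Δ and rrp6Δ, and XUT0391 is near 0 in mre11Δ, mre11-H125N and ku70Δ.

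The decay genes themselves were followed with a list of 26 genes of cytoplasmic decay (25 tested) and 25 of nuclear decay and early termination. In xrn1Δ 5 of the cytoplasmic list rose and 11 fell, XRN1 itself included, with the decapping activator DHH1 (log2 1.72 ± 0.09, adjusted p = 1.68e-08 in limma) and the decapping enzyme DCP2 (log2 1.14 ± 0.11) higher. In rrp6Δ 4 of the nuclear list rose, led by the termination factor NRD1 (log2 1.88 ± 0.18, adjusted p = 8.51e-06 in limma) and the TRAMP subunit AIR2 (log2 0.89 ± 0.12), and 1 fell, which was RRP6 itself. MTR4, the exosome's helicase, fell in xrn1Δ (log2 -1.62 ± 0.15, adjusted p = 7.23e-07 in limma). Of 30 chromatin genes known to repress noncoding transcription, 8 rose and 6 fell in xrn1Δ, and 0 rose and 1 fell in rrp6Δ.

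In rad50Δ 113 members rose and 12 fell (16.2% and 1.72%, against 12.4% and 9.32% of all rows), with a median log2 change of 0.33, against -0.01 for coding rows. In mre11Δ 77 rose and 31 fell (11.0% and 4.44%, against 10.7% and 9.84%), with a median of 0.07. The antisense XUTs, SUTs and CUTs had medians of 0.36, 0.32 and 0.29 in rad50Δ, near that of the members, and 0.16, 0.12 and 0.06 in mre11Δ. Within the library set of these mutants, with wild type 1 and 2 only, the member counts were 120 and 7 in rad50Δ and 77 and 22 in mre11Δ. The share rising in mre11Δ is near the background. Leaving out 3 libraries together, the first ones of rad50Δ, mre11Δ and wild type, in which the G1/S genes were high, left 73 higher and 12 lower in rad50Δ and 49 higher and 23 lower in mre11Δ, and single libraries weighed on the rest: without the second rad50Δ library 23 members rose, without the first 46, and without the first mre11Δ library 39 rose in mre11Δ. With the replicate number as a block, 7 fell in rad50Δ and 18 in mre11Δ. The part of cell-cycle state in these changes was not tested. Between rad50Δ and mre11Δ 2 members were higher in rad50Δ and 0 lower (0.0906% and 0.0725% of all rows), although at an unadjusted p under 0.05 the counts were 82 and 23, and edgeR called 2 and 0.

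By length, 15 of 211 members under 400 bp, 48 of 283 from 400 to 1000 bp and 50 of 204 longer ones rose in rad50Δ, and 11, 24 and 42 in mre11Δ. The median log2 changes of these classes were 0.24, 0.41 and 0.31 in rad50Δ and -0.09, 0.06 and 0.21 in mre11Δ. Longer members also gave more reads to test, and the dependence on length was not tested. Of the 59 members covered by a CUT, 7 rose in rad50Δ and 3 in mre11Δ. Among the nuclear decay genes 2 rose and 8 fell in rad50Δ and 2 rose and 9 fell in mre11Δ. The exosome core gene RRP43 was lower in both (log2 -0.74 ± 0.11 in rad50Δ and -0.55 ± 0.11 in mre11Δ, with adjusted p = 5.78e-04 and 0.0039 in limma), NRD1 was higher in both (log2 0.70 ± 0.18 and 0.83 ± 0.18), and RRP6 was lower in mre11Δ (log2 -0.60 ± 0.12). RRP6 had 2868 and 2439 counts in rad50Δ, against 3138 to 3681 in wild type. These changes were not particular to the 2 deletions. NRD1 was also higher in rrp6Δ (log2 1.88), xrn1Δ (log2 0.99) and MMS (log2 0.65), and RRP6 was lower in MMS (log2 -0.69). Of the 25 cytoplasmic decay genes tested, 2 rose and 6 fell in rad50Δ, and 1 rose and 4 fell in mre11Δ. Of the chromatin list 0 rose and 6 fell in each deletion, including SET2, the histone H3 methyltransferase that restrains cryptic transcription (rad50Δ log2 -0.83 ± 0.16, mre11Δ log2 -0.88 ± 0.16).

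The largest rise of any member in both deletions was at the ribosomal DNA. XUT0649 (chromosome 12, 460330 to 460763, plus strand) overlaps ETS2-2 and RDN37-2, parts of a ribosomal RNA repeat, on the other strand. It had 306 and 218 counts in rad50Δ, 515 and 204 in mre11Δ and 138 and 90.6 in rrp6Δ, against 19.5, 13.6, 10.6 and 7.31 in wild type. Every library of these 3 mutants stood above all 4 wild-type libraries, at 20.6-fold in rad50Δ (limma log2 4.31 ± 0.41, adjusted p = 2.78e-05) and 28.2-fold in mre11Δ (limma log2 4.64 ± 0.41, adjusted p = 1.32e-05). In mre11-H125N it had 9.10 and 6.70 counts and in xrn1Δ 4.74 and 5.05, so that mre11Δ stood 45.5-fold above mre11-H125N (log2 5.21 ± 0.47, adjusted p = 4.34e-05 in limma), across the library sets. Ribosomal DNA is repeated, and the note of XUT0649 does not list W303. The RNA opposite XUT0649 is rRNA, which the libraries were depleted of. The part of leftover rRNA in its values was not tested.

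XUT1610 (chromosome 14, 174810 to 175218, minus strand) had 35.0 and 49.1 counts in rad50Δ, against 9.75, 1.71, 3.25 and 0.914 in wild type (log2 3.44 ± 0.59, adjusted p = 0.00215 in limma). It starts 192 bp from RAD50 on the other strand, next to the locus that rad50::KAN replaced, and lies between RAD50 and NRD1. It had 2.43 and 6.13 counts in mre11Δ, and its mean outside rad50Δ was 5.87, so that it entered the test only through the rad50Δ libraries. XUT0988 also rose in rad50Δ, with 49.8 and 33.6 counts (log2 3.30 ± 0.51, adjusted p = 0.00101 in limma). In mre11Δ the next largest rises were those of XUT0127, XUT0944 and XUT0950. XUT0127 (chromosome 4, 47852 to 49289, plus strand) covers the promoter of HO from the other strand and had 34.0 and 36.8 counts in mre11Δ, against 4.18 to 5.69 in wild type (log2 2.63 ± 0.28, adjusted p = 6.63e-05 in limma). XUT0944 is divergent from YAT1, a carnitine acetyltransferase, and had 104 and 89.9 counts in mre11Δ and 70.0 and 58.1 in rad50Δ, against 11.9 to 20.9 in wild type (mre11Δ log2 2.49 ± 0.25, adjusted p = 4.13e-05 in limma). Of those that fell, XUT0188 had 7.37 and 15.5 counts in rad50Δ, against 24.4 to 30.7 in wild type (log2 -1.24 ± 0.31, adjusted p = 0.0143 in limma), a call that ended without the first rad50Δ library (log2 -0.75, adjusted p = 0.182) and with only the groups compared (adjusted p = 0.0767), and XUT0854 had 7.29 and 14.3 in mre11Δ, against 26.5 to 39.3 (log2 -1.62 ± 0.29, adjusted p = 0.0023 in limma).

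XUT0391 (chromosome 7, 884006 to 884209, plus strand, 204 bp) fell by more than any other member in mre11Δ. It starts 196 bp from TDH3, the glyceraldehyde-3-phosphate dehydrogenase gene, whose upstream region is the GPD promoter of yeast expression cassettes. It had 363 and 435 counts in rad50Δ, 0 and 6.13 in mre11Δ, 2.14 and 4.88 in mre11-H125N, 57.0 and 50.3 in rrp6Δ, 144 and 143 in xrn1Δ, 2.99 in ku70Δ and 254 and 319 in MMS, against 191, 228, 275 and 261 in wild type. The mre11Δ, mre11-H125N and ku70Δ libraries were thus near 0, and the others were not (mre11Δ log2 -6.48 ± 0.55, adjusted p = 1.54e-05, mre11-H125N log2 -5.79 ± 0.55, adjusted p = 3.22e-04, ku70Δ log2 -5.90 ± 0.71, adjusted p = 0.00182, all in limma). The labels give the GPD-TK7 cassette at URA3 for rad50Δ and rrp6Δ and for no other strain. URA3 had 4014 and 4365 counts in rad50Δ, 1193 and 1425 in mre11Δ, 2130 and 2295 in mre11-H125N, 2057 and 1863 in rrp6Δ, 3217 and 3252 in xrn1Δ, 1826 in ku70Δ and 2401 and 3464 in MMS, against 8010, 6592, 8368 and 7732 in wild type. The part of the strains' cassettes in the XUT0391 values was not tested. Its lower level in rrp6Δ (log2 -2.12 ± 0.55, adjusted p = 0.012 in limma) lost its call without either rrp6Δ library.

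In mre11-H125N 28 members rose and 2 fell (4.01% and 0.287%, against 0.960% and 0.380% of all rows), and most of those that rose were long members over unlisted RefSeq loci. Of the 46 members over unlisted RefSeq loci, 22 rose and 0 fell, with a median log2 change of 0.95 and a positive sign in 45. Of the 648 members with no base in such a locus 4 rose and 2 fell, with a median of 0.08. All but the shortest of the 28 were 3298 to 5579 bp long, the exception being XUT0505 at 2304 bp. Without the first mre11-H125N library 3 members rose instead of 28, with wild type 3 and 4 only, within the library set, 26 rose and 4 fell, and with only the groups compared in the fit 5 rose. Other settings gave more: 68 rose with the replicate number as a block, 67 with wild type 1 and 2 only, across the library sets, and 49 in DESeq2.

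Summed over the 46, normalized counts were 136100 and 125600 in mre11-H125N, 104100 in ku70Δ and 90880 and 82470 in mre11Δ, against 59480 to 76970 in wild type. The mre11-H125N libraries and the ku70Δ library were higher than every other library in this sum. XUT1082 (chromosome 4, 878508 to 883665, minus strand), over YDR210C-D and YDR210C-C, had 3490 and 3117 counts in mre11-H125N, against 713, 890, 668 and 912 in wild type (4.15-fold, log2 2.06 ± 0.14, adjusted p = 8.78e-06 in limma), and 1077 and 899 in mre11Δ. Its neighbour XUT0196 lies over YDR210W-B and YDR210W-A. It had 2416 and 2113 in mre11-H125N, 389 and 415 in mre11Δ and 398 and 411 in rad50Δ. In wild type it had 525, 783, 1050 and 1001. Against all of these it rose in the point mutant and fell in both deletions (rad50Δ log2 -1.0017 ± 0.21, a call that ended when either rad50Δ library was left out). The lower wild-type values, 525 and 783, are those of wild type 1 and 2, which share the deletions' library set. With wild type 1 and 2 only, the rad50Δ change was smaller (log2 -0.66 ± 0.16, adjusted p = 0.0181 in limma). The point mutant belongs to the other set, so library set and genotype cannot be told apart between it and the deletions. The member with the most counts, XUT0763 over YNL054W-B and YNL054W-A, had 32836 and 29707 in mre11-H125N and 6890 and 7112 in xrn1Δ, against 13167 to 20836 in wild type, higher in the point mutant and lower in xrn1Δ (log2 0.89 ± 0.15, adjusted p = 0.0157, and log2 -1.27 ± 0.15, adjusted p = 9.50e-06, in limma).

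**Figure D5:**
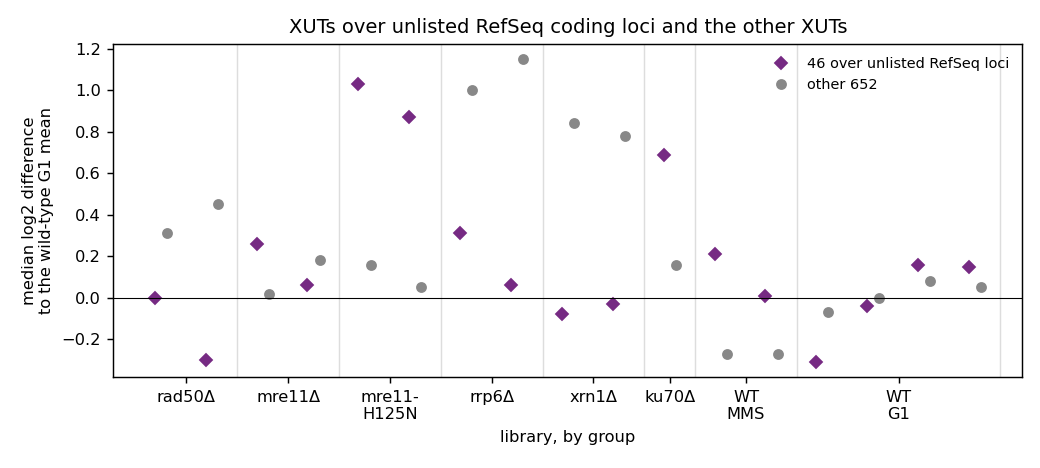
Median log2 difference to the wild-type G1 mean (y axis) in each library (x axis, by group) for the 46 members over unlisted RefSeq coding loci (purple diamonds) and the other 652 members (grey circles). The 46 stand at 1.03 and 0.87 in mre11-H125N and 0.69 in ku70Δ, against -0.31 to 0.16 in wild type, and the 652 are highest in rrp6Δ (1.00 and 1.15).

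Set directly against mre11-H125N, mre11Δ had 50 members higher and 53 lower (7.16% and 7.59%, against 8.03% and 6.81% of all rows). Of the 53, 21 were among the 46 repeat-like members, whose median was -0.94, and the largest fall was that of XUT0074 opposite LSR1 (log2 -3.05 ± 0.91, adjusted p = 0.046 in limma). These mutants lie in different library sets, and that member is one of those whose share of the opposite RNA separates the sets. Library set and genotype therefore cannot be told apart here. Without single libraries the counts ran from 9 to 41 higher and 15 to 74 lower. XUT1311 (chromosome 8, 454794 to 458503) fell in mre11-H125N, with 42.3 and 34.1 counts, against 87.8, 126, 95.1 and 99.6 in wild type (log2 -1.39 ± 0.17, adjusted p = 0.00164 in limma), a call that ended with only the groups compared in the fit.

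In ku70Δ, whose lone library is taken to vary as the replicated groups do, 4 members rose and 1 fell (0.573% and 0.143%, against 0.326% and 0.344% of all rows). XUT1182 (chromosome 6, 266180 to 268473, minus strand) starts 1581 bp from the end of the last listed row on the right of the chromosome and runs inward. It had 211 counts in ku70Δ, against 32.0, 37.5, 19.5 and 32.0 in wild type (6.98-fold, log2 2.80 ± 0.38, adjusted p = 0.00328 in limma). It had 55.3 and 85.3 in rad50Δ, 82.6 and 67.4 in mre11Δ and 95.1 and 83.3 in rrp6Δ. The other 3 that rose, XUT0028, XUT1561 and XUT1331, are among the 46, with log2 changes from 0.94 to 1.13, and XUT0391 was the member that fell. With wild type 3 and 4 only the counts were 2 and 1, and with wild type 1 and 2 only, across the library sets, 23 and 4.

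In MMS 53 members rose and 176 fell (7.59% and 25.2%, against 18.6% and 22.6% of all rows), with a median log2 change of -0.23, against 0.00 for coding rows. The share that fell in MMS is near the background, and the share that rose is below it. The antisense XUTs, SUTs and CUTs had medians of -0.22, -0.2 and -0.25 there, near that of the members. Within the library set, with wild type 1 and 2 only, 52 members rose and 131 fell. All 24 pheromone response genes fell, 20 of 30 G1/S genes and 9 of 10 histone genes rose, and the part of leaving the arrest was not tested. Of the 46 repeat-like members 3 rose and 0 fell. By length, 62 of 211 under 400 bp, 74 of 283 from 400 to 1000 bp and 40 of 204 longer ones fell.

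Among the members that fell in MMS, XUT0466 (chromosome 9, 22579 to 23086, plus strand) had 67.3 and 68.0 counts, against 552, 1214, 1180 and 1042 in wild type in G1 (14.7-fold lower, log2 -3.80 ± 0.36, adjusted p = 8.79e-06 in limma). Its neighbour XUT0468 (28872 to 30357), 7028 bp before SUC2, the invertase gene, had 1509 and 1027 in MMS, against 419, 399, 360 and 335 (log2 1.72 ± 0.15, adjusted p = 2.54e-06 in limma). XUT0648, which lies 3982 bp before TAR1, a gene inside the ribosomal DNA, had 2.17 and 2.83, against 25.6 to 57.6 (log2 -3.57 ± 0.32, adjusted p = 2.80e-06 in limma), and XUT1030 before HO had 19.5 and 18.4, against 34.8 to 204 (log2 -2.34 ± 0.64, adjusted p = 0.0119 in limma). XUT1396 before IME1 fell likewise, to 13.0 and 19.8 counts, against 29.0 to 115.

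XUT1049 (chromosome 4, 443761 to 444207, minus strand) is divergent from MCD1, the cohesin subunit gene induced at G1/S. It had 82.5 and 86.4 counts in MMS and 75.3 and 8.17 in mre11Δ, against 18.1, 1.71, 1.63 and 0.914 in wild type (MMS log2 4.41 ± 0.91, adjusted p = 0.00189 in limma). The mre11Δ library and the wild-type library with the higher counts were those in which G1/S genes were high. XUT1343 before CAB2, a gene of coenzyme A synthesis, had 172 and 137 in MMS, against 13.6 to 24.7 (log2 2.87 ± 0.33), and XUT1550, which runs over 49.6% of its length opposite YPT7, a vacuolar GTPase gene, , had 185 and 153, against 21.9 to 26.8 (log2 2.78 ± 0.19, adjusted p = 1.96e-07 in limma). XUT1151 opposite SCR1 was also called lower in MMS and in xrn1Δ, but had 344 and 113 counts in wild type 1 and 2 and 5458 and 3816 in wild type 3 and 4, and both calls ended with wild type 1 and 2 only. For xrn1Δ, with 77.3 and 21.6 counts, that alternative crosses the library sets, since xrn1Δ belongs with wild type 3 and 4. SCR1 itself had 28810 and 12760 counts in xrn1Δ, against 1126000 to 1490000 in wild type.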

How the data were processed

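RNA-seq of 17 libraries in 8 groups was used, and 12 other samples of the series (chromatin immunoprecipitation, inputs and Micro-C) were not analysed here. Per the labels' protocols the RNA libraries were made from total RNA. Per the submitters' processing notes, the authors used STAR 2.5.3, SAMtools 0.1.19, DESeq2 and build R64. Each deposited signal value, judged from its steps, is the number of reads on a row over the library's size factor. In every library 100% of values lay within 0.02 of whole multiples of 1 step, so whole reads were taken back in 16 libraries, and edgeR called 3682, 3120, 237, 5628, 11094 and 6487 of all rows in rad50Δ, mre11Δ, mre11-H125N, rrp6Δ, xrn1Δ and MMS. The other 33 columns of per-sample values or group means were not used. The counting program is not given in the sources used here.

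Overlaps were computed from the coordinates in the table and, for unlisted coding loci, from RefSeq R64. The right end of a chromosome was taken as the end of its last listed row. Rows with a mean of at least 10 (16559) were taken to log2(value + 1) and fitted with limma 3.58.1 (R 4.3.3; empirical Bayes with trend and robust settings), with all groups in 1 fit and a threshold of 0.05 after Benjamini-Hochberg adjustment over all rows. Libraries were grouped by genotype and treatment. The scripts were tested on simulated data. Members and gene lists were chosen with earlier results of these data known. Named members followed a rule: the largest changes among those called whose libraries did not overlap wild type (8 per direction for xrn1Δ and rrp6Δ, 4 or 2 for the others), and the 5 with the highest level per kb. From each gene list the 2 per direction with the smallest p were eligible. XUT0028, XUT1561, XUT0505 in the nuclease mutants, neighbouring genes and further comparisons of members already named were added after their values were seen. Alternatives were the replicate number as a block, pseudocounts of 0.5 and 8, no filter, TMM and median-of-ratios scaling, edgeR 4.0.16 and DESeq2 1.42.0 on whole reads, a fit of only the groups compared, narrower member sets, and leaving out each library. No genome was given, so no sequences are shown.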

Additional observations from a re-analysis of the deposited data

Results flagged for a closer look

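Among 64 members named by rule, 7 had a wild-type G1 library that stood apart from the other 3 by Dixon's test on log2 values; chance gives about 1 in 20 groups. Wild type 1 was lowest for XUT0206 (2190 normalized counts, against 2497 to 2536 in the others) and for XUT0946 (5.57, against 20.1 to 23.9). It was highest for XUT1032 (40.4, against 20.5 to 22.0) and for XUT1049 (18.1, against 0.914 to 1.71). Wild type 3 was highest for XUT0950 (45.5, against 12.5 to 13.6) and for XUT1547 (127, against 101 to 103). Wild type 4 was highest for XUT0920 (35.6, against 25.6 to 26.8). Wild type 1 is the library with high G1/S genes, and its part in these values was not tested.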

How the results depend on the processing

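Counts are given as higher and lower members. With only the groups compared in the fit, where spread is estimated from fewer libraries, they were 35 and 3 in rad50Δ, 21 and 5 in mre11Δ, 5 and 1 in mre11-H125N, 0 higher in ku70Δ and 30 and 114 in MMS, 0 higher in rad50Δ against mre11Δ, and 9 and 27 in mre11Δ against mre11-H125N. With the replicate number as a block, 7 were lower in rad50Δ and 18 in mre11Δ, 68 and 8 were called in mre11-H125N and 28 and 3 in ku70Δ. Same-numbered libraries share a number for which the labels give no batch. Their deviations correlated at 0.21 to 0.45 among rad50Δ, mre11Δ and wild type and at -0.22 to 0.04 in the other comparisons, with 2 pairs in each, and with the rrp6Δ numbers crossed, 154 and 232 were called in xrn1Δ against rrp6Δ. DESeq2 called 20 lower in rad50Δ, 49 and 7 in mre11-H125N, 24 lower in rrp6Δ and 2 lower in rad50Δ against mre11Δ. With wild type 1 and 2 only, 7 were lower in rad50Δ, 67 and 7 were called in mre11-H125N and 23 and 4 in ku70Δ, and with wild type 3 and 4 only 33 were lower in rad50Δ, 51 in mre11Δ and 4 in mre11-H125N, and 2 were higher in ku70Δ. With the first libraries of rad50Δ, mre11Δ and wild type left out together, 73 were higher in rad50Δ, 49 in mre11Δ, 1 in rad50Δ against mre11Δ and 30 in mre11Δ against mre11-H125N. Among the 523 members with no antisense coding base, 75 were higher in rad50Δ, 1 lower in mre11-H125N and 27 higher in mre11Δ against mre11-H125N. Among those with no base in an unlisted RefSeq locus, 4 were higher in mre11-H125N, 8 lower in rrp6Δ, 1 higher in ku70Δ and 32 lower in mre11Δ against mre11-H125N. TMM scaling, which moved the median of all rows in rrp6Δ by -0.13, called 2 lower in ku70Δ. The cause of these moves was not tested except as stated.

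Leaving out single libraries gave 23 to 119 and 4 to 21 in rad50Δ, 39 to 80 and 15 to 41 in mre11Δ, 3 to 36 and 2 to 5 in mre11-H125N, 247 to 402 and 9 to 15 in rrp6Δ, 249 to 332 and 43 to 79 in xrn1Δ, 3 to 8 and 1 to 3 in ku70Δ, 25 to 67 and 105 to 190 in MMS, 110 to 114 and 171 to 192 in xrn1Δ against rrp6Δ, 1 to 12 and 0 to 4 in rad50Δ against mre11Δ, and 9 to 41 and 15 to 74 in mre11Δ against mre11-H125N. Of 79 results for named members, 57 kept their call in every alternative run, 22 lost it in at least 1 and 0 reversed. Depth limits the scarce members most, since 1 read was worth 0.337 to 2.43 normalized counts.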
